A study of Rattus norvegicus with 9 samples.

Results

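The report covers the classical axon guidance genes on 9 rat arrays: the Slits, netrins, semaphorins and ephrins, which are ligands, and the Robo, Dcc, Neo1, Unc5, neuropilin, plexin and Eph receptors. Members were taken by gene name alone, as every gene of these families with a probe set (a group of array probes for 1 transcript) that carries a single gene symbol. This gave 57 of the 14217 such genes, 27 ligands and 30 receptors, read by 98 probe sets. A further 13 protein-coding genes of these families in the GRCr8 rat gene table had no such probe set and are not analysed here: Efna2, Efna3, Efnb2, Epha1, Ephb2, Ntn3, Ntn4, Plxnb3, Robo4, Sema4c, Sema5b, Sema7a and Unc5d. All tissue came from Sprague-Dawley rat embryos on embryonic day 13 and was dissected without culture; the labels name no mutation or drug. The UB samples were ureteric buds, the epithelial outgrowths that build the collecting system of the kidney, freed from the embryonic kidney by a brief digestion with trypsin. The WD+IM samples were Wolffian ducts, the tubes from which the buds arise, left with their attached mesodermal cells, and the WD samples were Wolffian ducts isolated without enzyme. Each tissue had 3 arrays labelled as biological replicates, each of a pool of about 100 UB, 50 WD+IM or 100 WD pieces, so a value is an average over many embryos. The digestion was used for UB alone, so its part and that of the tissue in a UB difference cannot be told apart.

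Axon guidance cues were named for steering nerve fibres, and the same ligands and receptors act outside the nervous system, where they direct migrating cells, pattern vessels and set boundaries between tissues. Slits signal through Robo receptors, netrins through Dcc, Neo1 and the Unc5 receptors, class 3 semaphorins mostly through neuropilins paired with plexins, and membrane-bound ephrins through Eph receptor tyrosine kinases on the neighbouring cell. In the mouse kidney, loss of Slit2 or Robo2 lets the Gdnf signal spread along the nephric cord, so that extra ureteric buds form on the Wolffian duct.

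The values are linear array intensities, scaled by the authors to a common trimmed mean, and each difference below is log2 of the intensity plus a pseudocount of 46 units, given ± SE from limma, with p adjusted over all 20334 probe sets tested and called under 0.05. The median signal of an array was 534 to 626 units in UB, 644 to 897 in WD+IM and 778 to 862 in WD. Arrays of the same tissue correlated at 0.932 to 0.978 over probe sets, and arrays of different tissues at 0.828 to 0.919. The ratio of the bacterial spike-in controls bioC and bioB fell into 2 sets, 2.94 to 3.03 on the 3 UB arrays and WD+IM replicate 3, and 0.915 to 1.08 on the other 5 arrays. The beta-actin 3'/5' ratio, a sign of RNA quality, was 1.48 to 2.30 in UB, 1.47 to 1.92 in WD+IM and 2.19 to 4.87 in WD.

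The 12 markers of duct epithelium, among them Cdh1, Epcam, Pax2 and Ret, summed to 230211 to 248978 units in UB, 76580 to 117274 in WD+IM and 247299 to 269019 in WD, so all 3 tissues carried the labelled epithelium. Krt19 stood apart from the other 11, with 464 to 570.3 units in UB, 12042 to 16738 in WD+IM and 14251 to 14889 in WD. Markers of mesenchyme summed to 13420 to 18622 units in UB, 258650 to 314345 in WD+IM and 106501 to 147749 in WD, and markers of endothelium to 3396 to 4535, 48339 to 48840 and 5676 to 7069 units in the same order of tissues. Red cell markers summed to 9096 to 31877 units in UB, 160999 to 234036 in WD+IM and 182154 to 259811 in WD, and macrophage markers to 1845 to 2627, 5547 to 7825 and 4164 to 6347. No marker was at 0 in any tissue, and Flt1 of endothelium, Ahsp of red cells and Mrc1 of macrophages averaged below the pseudocount in UB. In pooled tissue, fewer cells of a type and less RNA per cell cannot be told apart. The part of these cell types in the differences below was not tested.

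Under the authors' scaling, most members called in UB against either other tissue were lower in UB. Of the 57 genes, 46 passed the filter on low signal, which a gene strong in 1 tissue alone could pass, so the counts describe the tested genes and not the families. Slit1, Sema3d and Robo2 rose and 22 members fell in UB against WD, so that 25 of 46 were called, against 33.0% of all 10802 genes tested. The median difference was -0.57 over the members and -0.08 over all genes. By direction, 13.3% of all genes were called higher and 19.6% lower. The balance of directions moved with the scaling: quantile normalization gave 6 higher and 10 lower, and centring each array on its median gave 10 higher and 11 lower. The median of all probe sets was -0.12, 0.04 and 0.34 under the authors' scaling, quantile normalization and median centring. The member median was -0.57, -0.41 and -0.11 in the same order. Of all 20334 probe sets tested, 6073, 4949 and 7366 were called in that order. Without UB replicate 1 the member count was 16, and 3742 of all probe sets were called.

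In WD+IM against WD, 5 members rose and 5 fell, so that 10 of 46 were called against 14.7% of all genes (6.47% higher, 8.24% lower), with medians of -0.02 over the members and -0.01 over all genes. Median centring gave 5 higher and 3 lower, with 2165 of all probe sets called against 2577 under the authors' scaling. For UB against WD+IM, 7 members rose and 17 fell, so that 24 of 46 were called against 30.3% of all genes (13.6% higher, 16.6% lower), with medians of -0.30 and -0.01. Since each tissue enters 2 of the 3 comparisons, their results are linked. Of the genes given array by array below, 10 were named for a called log2 difference of at least 2 in size without overlap. For these, lack of overlap in that comparison was a condition of the choice.

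**Figure D1:**
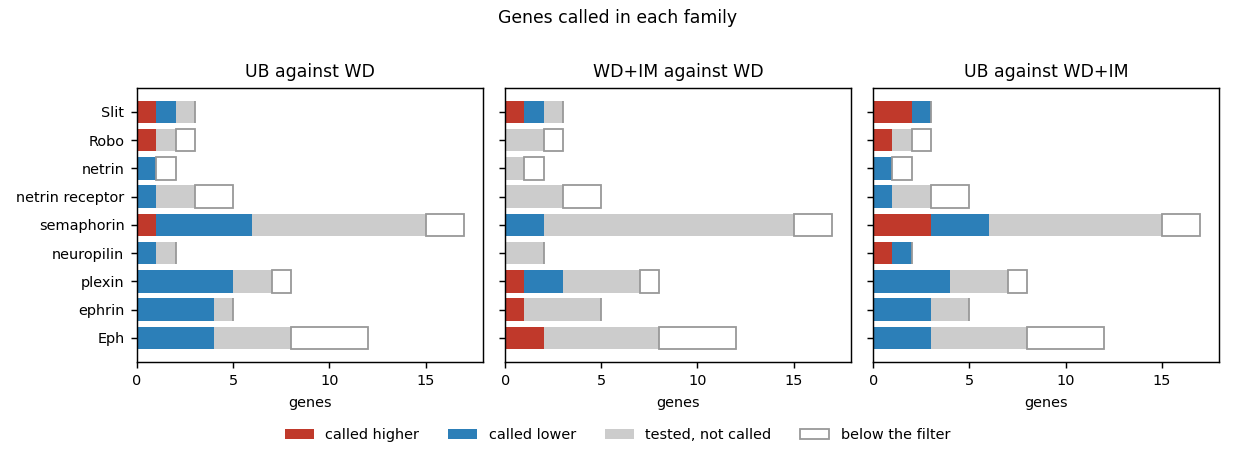
Number of axon guidance genes in each family that were called higher, called lower, not called or below the filter on low signal, for the 3 comparisons (x axis, number of genes). In UB against WD the ephrin, Eph and plexin bars hold 4, 4 and 5 genes called lower, of 5, 8 and 7 tested. They hold 0 called higher under the authors' scaling (Efna4 was called higher under both others), while the Slit and semaphorin bars hold calls in both directions. Of all genes tested, 19.6% were called lower and 13.3% higher in that comparison.

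**Figure D2:**
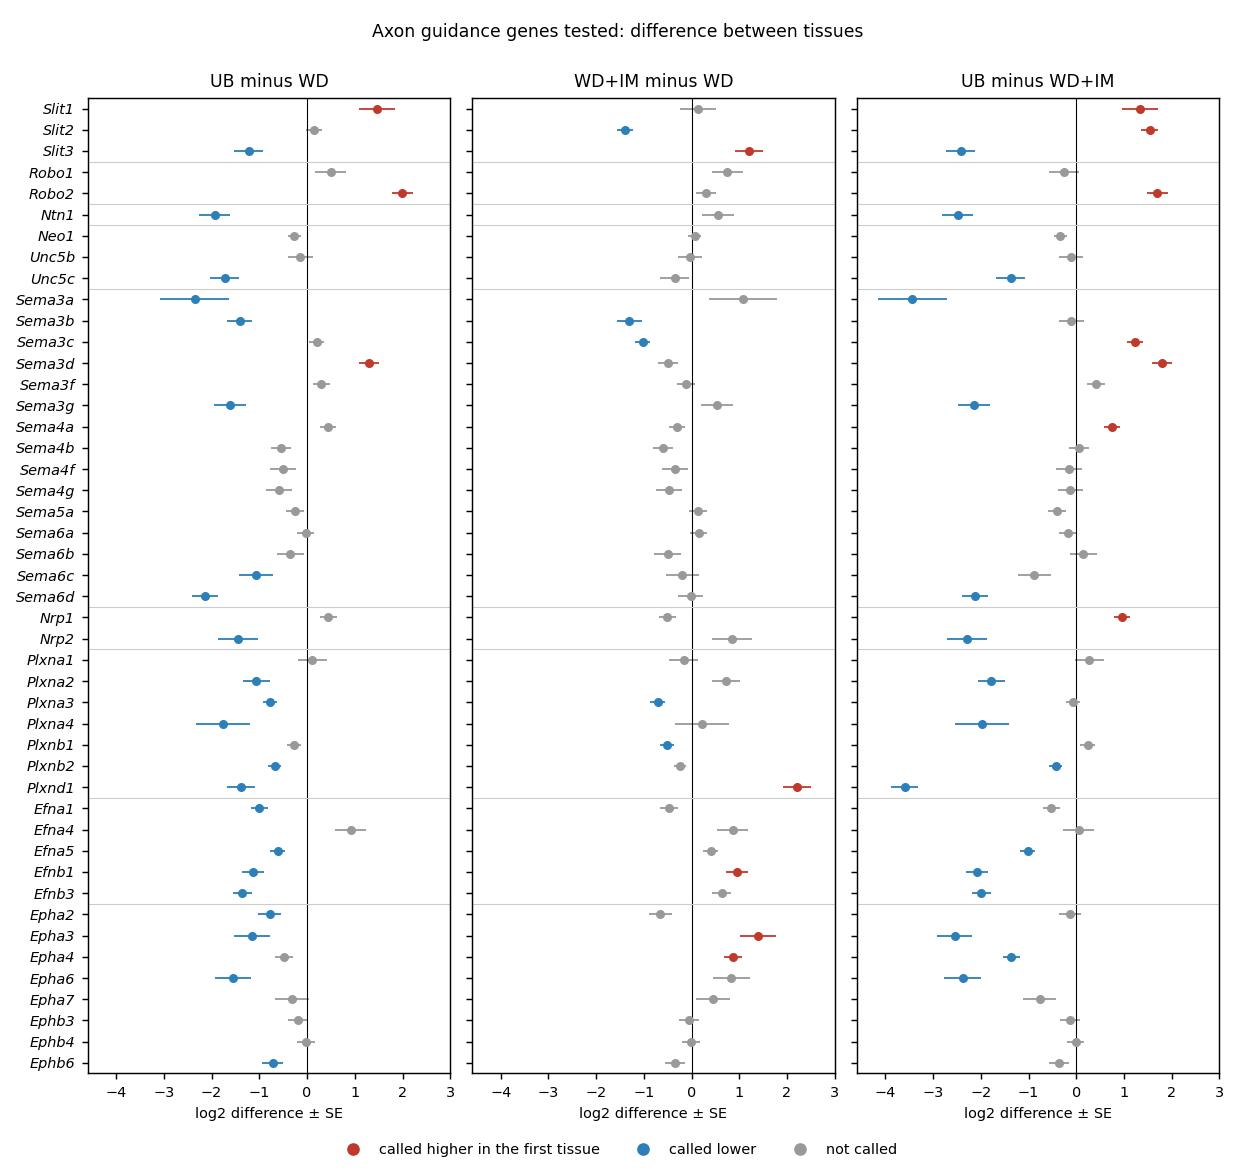
Log2 difference (x axis, ± SE) of each of the 46 tested genes in the 3 comparisons, with UB against WD, WD+IM against WD and UB against WD+IM side by side. Plxnd1 stands at -3.60 in UB against WD+IM and Robo2 at 2.00 in UB against WD.

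The 3 Slits, secreted ligands of the Robo receptors, differed in opposite ways. Slit2 read 13016, 14413 and 14378 intensity units on the UB arrays, 5603, 4023 and 4816 on the WD+IM arrays and 14768, 13774 and 9873 on the WD arrays. UB and WD overlapped, and every WD+IM array lay below both. Slit2 was not called in UB against WD, at 0.14 ± 0.17 (adjusted p = 0.562), fell in WD+IM against WD, at -1.39 ± 0.17 (adjusted p = 0.000297), and rose in UB against WD+IM, by 1.54 ± 0.17 (adjusted p = 3.12e-05). Under median centring the first of these reached 0.60 ± 0.22 (adjusted p = 0.0432). Its second tested probe set was not called in any comparison. Of 12 duct epithelial markers, 11 fell in WD+IM against WD, as Slit2 did. In UB against WD+IM 10 of them rose and 1 fell, and in UB against WD 2 rose and 5 fell.

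Slit3 read 262, 244 and 383 intensity units on the UB arrays, 2263, 1619 and 1496 on the WD+IM arrays and 528, 831 and 922 on the WD arrays. The groups did not overlap, with WD+IM highest and UB lowest. Slit3 fell in UB against WD, at -1.22 ± 0.30 (adjusted p = 0.0103), rose in WD+IM against WD, by 1.20 ± 0.30 (adjusted p = 0.021), and fell in UB against WD+IM, at -2.42 ± 0.30 (adjusted p = 7.32e-05). The WD+IM against WD call was lost without WD replicate 1 or WD+IM replicate 1 (adjusted p = 0.0751 to 0.0764) and with the beta-actin covariate (0.48, adjusted p = 0.524), a fit that adds that ratio as a term. The UB against WD call was lost with quantile normalization (-0.63, adjusted p = 0.119) and the spike-in term (-0.88, adjusted p = 0.434), the spike-in term being a term in the fit for the 2 spike-in sets. Most mesenchyme markers moved the same way: 10 of 12 fell and 1 rose in UB against WD, and 8 of 12 rose in WD+IM against WD.

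Slit1 read 924, 836 and 1078 intensity units on the UB arrays, 401, 537 and 188 on the WD+IM arrays and 380.4, 264 and 300.1 on the WD arrays. Every UB array lay above every other array, and WD+IM and WD overlapped. Slit1 rose in UB against WD, by 1.46 ± 0.38 (adjusted p = 0.0129), and in UB against WD+IM, by 1.33 ± 0.38 (adjusted p = 0.0215). The first call was lost without UB replicate 1 or UB replicate 3 (adjusted p = 0.05 to 0.0563) and the second without UB replicate 1, UB replicate 2, UB replicate 3 or WD+IM replicate 3 (adjusted p = 0.0524 to 0.0847). With a covariate for the beta-actin ratio the UB against WD value was 1.43 ± 0.53 (adjusted p = 0.0872).

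Robo2, a Slit receptor, read 7364, 7938 and 5953 intensity units on the UB arrays, 2061, 2129 and 2225 on the WD+IM arrays and 1794, 2315 and 1231 on the WD arrays. Every UB array lay far above every other array, and WD+IM and WD overlapped. Robo2 rose by 2.00 ± 0.22 (adjusted p = 4.24e-05) in UB against WD and by 1.70 ± 0.22 (adjusted p = 8.67e-05) in UB against WD+IM, and was 0.30 ± 0.22 (adjusted p = 0.388) in WD+IM against WD. It kept its UB calls under all 3 scalings and with a term for the spike-in sets. All 3 of its tested probe sets were called higher in UB against WD, and 2 of the 3 in UB against WD+IM. Markers of nerve and glia summed to 11244 to 13581 units in UB, 5963 to 7999 in WD+IM and 4861 to 7657 in WD. Of 8 such markers tested, Gap43 and Elavl4 rose and Stmn2 fell in UB against WD, with a median of -0.74 over the 8. In UB against WD+IM Gap43 and Elavl4 rose and Stmn2, Nefm and Ngfr fell, with a median of -0.92.

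Robo1, the other tested Slit receptor, read 829.9, 869.9 and 1550.4 intensity units on the UB arrays, 1609, 1444 and 845 on the WD+IM arrays and 681, 591 and 949 on the WD arrays. The groups overlapped, and it was not called in any comparison, at 0.49 ± 0.32 (adjusted p = 0.264) in UB against WD. Quantile normalization and median centring moved this value past the threshold, to 0.85 ± 0.28 (adjusted p = 0.0469) and 0.95 ± 0.28 (adjusted p = 0.0149). Robo3 was below the filter on low signal. Robo1 and Robo2 lie on chromosome 11 with 1 protein-coding gene between them in the GRCr8 table.

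**Figure D3:**
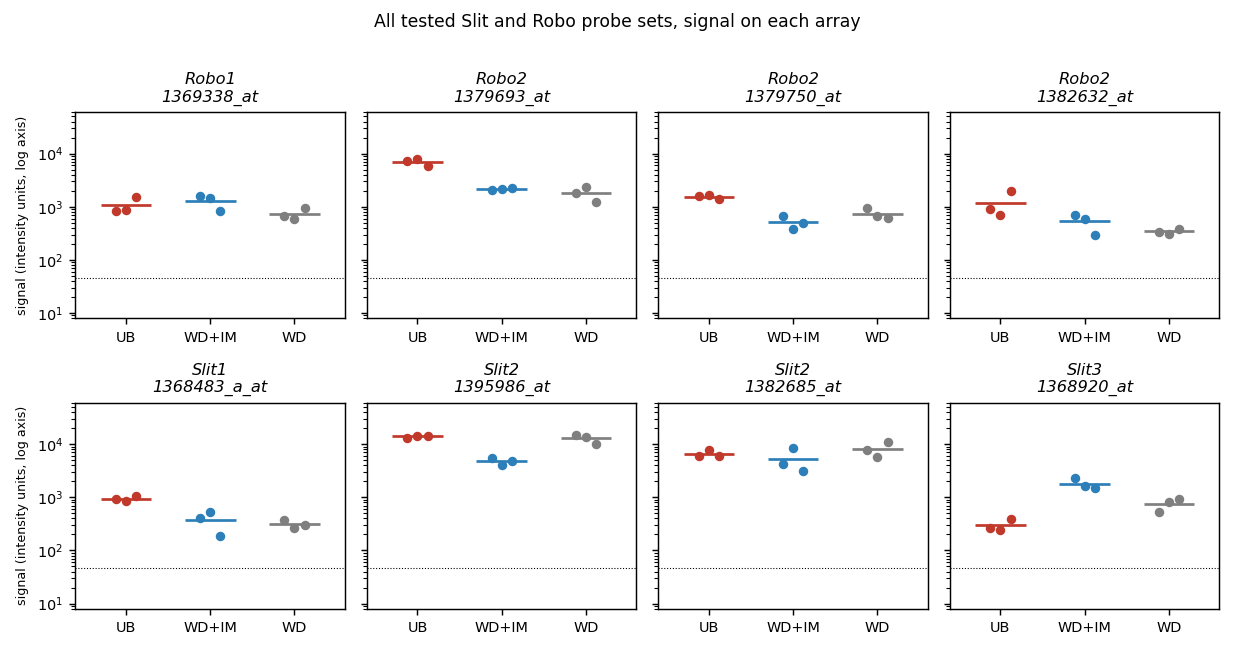
Signal on each array (y axis, intensity units, log scale) of the 8 tested probe sets of the Slits and Robos, with UB left, WD+IM in the middle and WD right. The main Robo2 probe set reads 5953 to 7938 units in UB, above all other arrays, and the main Slit2 probe set reads lowest in WD+IM, at 4023 to 5603.

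Promoter sequences, 250 bases before to 50 after the listed start, were taken from RefSeq on build GRCr8 for 43 of the 57 genes. They are shown for 4 genes chosen after their values were seen: Robo2 and Sema3d, higher in UB than in both other tissues, and Plxnd1 and Slit3, highest in WD+IM and lowest in UB. Capitals mark matches to CCGGAA, the core of ETS factor sites, GGGCGG, the GC box, CCAAT and TATAAA, each searched on both strands. Each gene kept 1 window, the first by coordinate on either strand. The Robo2 window lies at chr11:26526363-26526662 on the minus strand, around the start of 1 transcript inside the gene's annotated span. Sema3d lies at chr4:23460922-23461221 on the minus strand, Plxnd1 at chr4:150715138-150715437 on the minus strand and Slit3 at chr10:20075679-20075978 on the plus strand.
Robo2: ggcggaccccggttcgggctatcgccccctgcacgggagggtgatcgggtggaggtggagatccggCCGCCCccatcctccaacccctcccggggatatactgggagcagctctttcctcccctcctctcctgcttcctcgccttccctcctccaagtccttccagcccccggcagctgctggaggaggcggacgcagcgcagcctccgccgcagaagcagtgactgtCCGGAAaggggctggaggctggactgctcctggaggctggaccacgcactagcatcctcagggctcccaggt
Sema3d: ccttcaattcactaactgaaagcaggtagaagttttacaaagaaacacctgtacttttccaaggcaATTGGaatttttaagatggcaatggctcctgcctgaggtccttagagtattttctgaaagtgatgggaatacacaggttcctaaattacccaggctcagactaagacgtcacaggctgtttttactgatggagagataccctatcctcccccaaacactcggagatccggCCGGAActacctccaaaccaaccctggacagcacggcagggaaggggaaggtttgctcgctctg
Plxnd1: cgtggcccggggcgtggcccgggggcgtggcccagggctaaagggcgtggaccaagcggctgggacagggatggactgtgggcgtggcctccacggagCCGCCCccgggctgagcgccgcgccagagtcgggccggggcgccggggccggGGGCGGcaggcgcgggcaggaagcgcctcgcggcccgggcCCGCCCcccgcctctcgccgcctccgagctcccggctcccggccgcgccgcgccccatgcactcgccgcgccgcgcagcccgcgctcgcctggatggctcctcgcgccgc
Slit3: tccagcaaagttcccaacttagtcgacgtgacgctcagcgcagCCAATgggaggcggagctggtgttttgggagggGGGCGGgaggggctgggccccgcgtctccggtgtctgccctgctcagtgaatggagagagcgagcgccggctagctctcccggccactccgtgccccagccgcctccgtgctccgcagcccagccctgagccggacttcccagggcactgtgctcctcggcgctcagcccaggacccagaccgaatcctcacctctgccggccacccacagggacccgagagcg

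The Robo2 and Sema3d windows each hold 1 CCGGAA, and the Plxnd1 and Slit3 windows hold none. Slit1, the other member called higher in UB against WD, had no window, and a link of the match to the differences was not tested. Among the 43 members with a window, Plxnb1 is the third with this match, so that 6.98% of member windows hold it against 15.0% of all 33469 promoters. GGGCGG is found in 25 of 43 members (58.1%), among them Robo2, Plxnd1 and Slit3, against 33.1% of all promoters. Member windows had a median GC content of 63.3%, against 51.7% over all promoters, and the 4 shown run from 47.3% in Sema3d to 83.0% in Plxnd1. CCAAT is found in 39.5% of member windows against 37.5% of all, and TATAAA in 0 of 43 against 14.2%. The members give 1 window a gene, whereas the promoter total counts every listed window of 300 bases, so these shares compare unlike sets. A match is a stretch of letters and not a measured site.

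Netrin signalling genes were lower in UB or not called. Ntn1, a secreted netrin, read 164, 212 and 222 intensity units on the UB arrays, 1502, 1421 and 1064 on the WD+IM arrays and 1414, 689 and 703 on the WD arrays. Every UB array lay below every other array, and WD+IM and WD overlapped. Ntn1 fell, at -1.93 ± 0.33 (adjusted p = 0.00118) in UB against WD and at -2.48 ± 0.33 (adjusted p = 0.000118) in UB against WD+IM. With the term for the spike-in sets the UB against WD value was -1.49 ± 0.59 (adjusted p = 0.207).

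Unc5c, a netrin receptor that mediates repulsion in nerve cells, read 243, 459 and 395 intensity units on the UB arrays, 1049.7, 984 and 937 on the WD+IM arrays and 1234, 1786 and 936 on the WD arrays. UB lay below both other tissues, which overlapped. It fell, at -1.72 ± 0.30 (adjusted p = 0.00155) in UB against WD and at -1.37 ± 0.30 (adjusted p = 0.0054) in UB against WD+IM. The spike-in term ended both calls, at -1.61 ± 0.57 (adjusted p = 0.16) and -1.30 ± 0.44 (adjusted p = 0.0935).

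Unc5b, a netrin receptor best known from endothelium, read 3737, 3293 and 4163 intensity units on the UB arrays, 4595, 3285 and 4272 on the WD+IM arrays and 5429.9, 2548 and 4973 on the WD arrays. The groups overlapped throughout, and the UB against WD value was -0.14 ± 0.26 (adjusted p = 0.703). Neo1, a receptor of netrins and repulsive guidance molecules, read 5623, 5818 and 5504 intensity units on the UB arrays, 6743, 7245 and 7402 on the WD+IM arrays and 7244, 7388 and 5924 on the WD arrays. It was not called in any comparison, with -0.33 ± 0.13 (adjusted p = 0.091) in UB against WD+IM, a value that passed with the mean of its tested probe sets (-0.47, adjusted p = 0.0304) and array weights (-0.34, adjusted p = 0.0358). Ntn5, Dcc and Unc5a were below the filter on low signal.

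Among the 15 tested semaphorins, Sema3d was the one called higher in UB against WD and 5 were called lower. These calls came to 40% of the tested semaphorins, against 33.0% of all genes. Sema3d, a secreted class 3 semaphorin, read 3887, 4077 and 5649 intensity units on the UB arrays, 1479, 1212 and 1109 on the WD+IM arrays and 2060.1, 1945 and 1463 on the WD arrays. Every UB array lay above every other array. Sema3d rose by 1.29 ± 0.21 (adjusted p = 0.000891) in UB against WD and by 1.79 ± 0.21 (adjusted p = 4.45e-05) in UB against WD+IM, and both calls held under all 3 scalings and with the spike-in term.

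Sema3c, another class 3 semaphorin, read 9809, 10188 and 9914 intensity units on the UB arrays, 3642, 4072 and 5089.7 on the WD+IM arrays and 7296, 10000.1 and 8875 on the WD arrays. UB and WD overlapped and WD+IM lay below both. Sema3c fell, at -1.03 ± 0.16 (adjusted p = 0.00128) in WD+IM against WD and rose by 1.23 ± 0.16 (adjusted p = 0.000107) in UB against WD+IM, and was 0.20 ± 0.16 (adjusted p = 0.354) in UB against WD. Median centring moved this last value to 0.66 ± 0.24 (adjusted p = 0.0385). Of the same class, Sema3f was not called in any of the 3 comparisons, and median centring brought it to 0.76 ± 0.23 (adjusted p = 0.0154) in UB against WD and 0.78 ± 0.23 (adjusted p = 0.0152) in UB against WD+IM.

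Sema3a, the class 3 semaphorin known for collapsing growth cones, read 11.8, 13.9 and 31.1 intensity units on the UB arrays, 1157, 793 and 289 on the WD+IM arrays and 67.6, 400.0 and 664 on the WD arrays. All 3 UB arrays were below the pseudocount, so its differences are understated, and WD+IM and WD overlapped. Sema3a fell, at -2.36 ± 0.72 (adjusted p = 0.0284) in UB against WD and at -3.44 ± 0.72 (adjusted p = 0.0038) in UB against WD+IM. The first call was lost without UB replicate 1, UB replicate 2, UB replicate 3, WD replicate 2 or WD replicate 3 (adjusted p = 0.0517 to 0.101) and with quantile normalization (-1.90, adjusted p = 0.0507), the spike-in term (-0.77, adjusted p = 0.787) and the pseudocount at the 25th percentile (-1.32, adjusted p = 0.0541). The second was lost with the spike-in term (-2.38, adjusted p = 0.155). Sema3a and Sema3d are neighbours on chromosome 4 with 0 protein-coding genes between them in the GRCr8 table, and in UB against WD the first fell and the second rose.

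Sema6d, a membrane-bound class 6 semaphorin, read 1001, 1000.1 and 904 intensity units on the UB arrays, 6083, 4246 and 3196 on the WD+IM arrays and 3802, 6550.1 and 3466 on the WD arrays. UB lay below both other tissues, which overlapped. It fell, at -2.14 ± 0.27 (adjusted p = 0.000129) in UB against WD and at -2.12 ± 0.27 (adjusted p = 7.99e-05) in UB against WD+IM. With the spike-in term the UB against WD value was -1.48 ± 0.44 (adjusted p = 0.0977).

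Sema3g, a class 3 semaphorin, read 133, 220.0 and 147 intensity units on the UB arrays, 889, 916 and 839 on the WD+IM arrays and 590.3, 792 and 442 on the WD arrays. UB lay below both other tissues. It fell, at -1.61 ± 0.34 (adjusted p = 0.0043) in UB against WD and at -2.15 ± 0.34 (adjusted p = 0.000461) in UB against WD+IM. Its UB against WD call was lost with quantile normalization (-0.89, adjusted p = 0.0933), the spike-in term (-1.51, adjusted p = 0.224) and the beta-actin covariate (-1.37, adjusted p = 0.0645).

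Sema3b, a class 3 semaphorin, read 908, 797 and 776 intensity units on the UB arrays, 614, 985 and 1153 on the WD+IM arrays and 1947, 2932 and 2036 on the WD arrays. WD lay above both other tissues, which overlapped. It fell, at -1.41 ± 0.26 (adjusted p = 0.00219) in UB against WD and at -1.31 ± 0.26 (adjusted p = 0.00622) in WD+IM against WD. The beta-actin covariate ended the second call, at -1.17 ± 0.40 (adjusted p = 0.143). Sema6c, a class 6 semaphorin, fell, at -1.07 ± 0.35 (adjusted p = 0.037) in UB against WD. That call was lost without UB replicate 1, UB replicate 2, WD replicate 1, WD replicate 2 or WD replicate 3 (adjusted p = 0.0629 to 0.134) and with quantile normalization (-0.76, adjusted p = 0.0941), median centring (-0.61, adjusted p = 0.107), the spike-in term (0.22, adjusted p = 0.846) and no mean-variance trend (-1.07, adjusted p = 0.0618), where the spike-in term turned its sign. Sema6c was -0.88 ± 0.35 (adjusted p = 0.0898) in UB against WD+IM and passed there with array weights (-1.08, adjusted p = 0.0165).

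Sema4a rose in UB against WD+IM, by 0.74 ± 0.17 (adjusted p = 0.00571), which the spike-in term reduced to 0.68 ± 0.24 (adjusted p = 0.101). In UB against WD it was 0.43 ± 0.17 (adjusted p = 0.0684), and passed with quantile normalization (0.56, adjusted p = 0.0395), median centring (0.89, adjusted p = 0.00629), the mean of its tested probe sets (0.43, adjusted p = 0.043), array weights (0.50, adjusted p = 0.0221) and no mean-variance trend (0.43, adjusted p = 0.0437). The other tested semaphorins, Sema4b, Sema4f, Sema4g, Sema5a, Sema6a and Sema6b, were not called in any comparison. Single alternatives brought 5 of their values past the threshold. In UB against WD these were Sema4b with the mean of its tested probe sets (-0.54, adjusted p = 0.0409) and Sema4g with the beta-actin covariate (-1.07, adjusted p = 0.0426). In WD+IM against WD it was Sema4b with the mean of its tested probe sets (-0.60, adjusted p = 0.045). In UB against WD+IM they were Sema5a with array weights (-0.51, adjusted p = 0.0463) and Sema6a with the mean of its tested probe sets (-0.53, adjusted p = 0.0312). Sema4a and Sema4b each have only the main probe set. For them the mean left the value as it was and changed the SE and the adjusted p alone.

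The neuropilins are co-receptors of class 3 semaphorins and of vascular endothelial growth factors. Nrp1 read 21838, 22246 and 18752 intensity units on the UB arrays, 11075, 8496 and 13212 on the WD+IM arrays and 17557, 15706 and 13021 on the WD arrays. UB lay above WD+IM and WD without overlap. Nrp1 rose by 0.95 ± 0.17 (adjusted p = 0.00127) in UB against WD+IM, and was 0.45 ± 0.17 (adjusted p = 0.0671) in UB against WD and -0.51 ± 0.17 (adjusted p = 0.0731) in WD+IM against WD. Its UB against WD value passed without WD+IM replicate 2 or WD+IM replicate 3 (adjusted p = 0.0416 to 0.0479) and with median centring (0.91, adjusted p = 0.00816), the beta-actin covariate (0.72, adjusted p = 0.0419), array weights (0.44, adjusted p = 0.0359) and the 2 tissues fitted alone (0.45, adjusted p = 0.037). In that comparison the spike-in term gave 0.0027 (adjusted p = 0.998) and the second tested probe set -0.05. The WD+IM against WD value passed without WD replicate 3 or WD+IM replicate 3 (adjusted p = 0.0368 to 0.0451) and with quantile normalization (-0.55, adjusted p = 0.0406), the spike-in term (-0.66, adjusted p = 0.0364), the mean of its tested probe sets (-0.45, adjusted p = 0.0206) and array weights (-0.60, adjusted p = 0.0483). The spike-in term ended the UB against WD+IM call, at 0.66 ± 0.22 (adjusted p = 0.0813).

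Nrp2 read 74.3, 194 and 185 intensity units on the UB arrays, 1267, 782 and 659 on the WD+IM arrays and 326, 514 and 592 on the WD arrays. UB lay lowest and WD+IM highest, with no overlap. Nrp2 fell, at -1.44 ± 0.42 (adjusted p = 0.0227) in UB against WD and at -2.28 ± 0.42 (adjusted p = 0.0015) in UB against WD+IM. The UB against WD call was lost without UB replicate 1, WD replicate 2 or WD replicate 3 (adjusted p = 0.0637 to 0.0936) and with quantile normalization (-0.75, adjusted p = 0.171), median centring (-0.98, adjusted p = 0.0639) and the spike-in term (-0.87, adjusted p = 0.588). The UB against WD+IM call was lost with the spike-in term (-1.90, adjusted p = 0.0617).

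Plxnd1, a plexin known from endothelium, read 165, 289.9 and 337 intensity units on the UB arrays, 3428, 4648 and 2912 on the WD+IM arrays and 881, 623 and 742 on the WD arrays. The 3 tissues were fully apart, with WD+IM highest and UB lowest. Plxnd1 rose by 2.21 ± 0.29 (adjusted p = 0.00044) in WD+IM against WD and fell, at -1.39 ± 0.29 (adjusted p = 0.0043) in UB against WD and at -3.60 ± 0.29 (adjusted p = 1.88e-06) in UB against WD+IM. The UB against WD call was lost with quantile normalization (-0.76, adjusted p = 0.0613) and the spike-in term (-0.94, adjusted p = 0.369). Endothelial markers moved alongside: 11 of 13 rose in WD+IM against WD, 5 fell and Cldn5 rose in UB against WD, and 13 of 13 fell in UB against WD+IM.

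Plxna2, Plxna3, Plxna4 and Plxnb2, receptors of semaphorins, fell with Plxnd1 in UB against WD. Plxnb2 read 13396, 15315 and 13519.8 intensity units on the UB arrays, 17441, 21288 and 18449 on the WD+IM arrays and 20083, 24724 and 23137 on the WD arrays. UB lay lowest without overlap, and WD+IM overlapped WD. It fell, at -0.68 ± 0.13 (adjusted p = 0.00243) in UB against WD and at -0.43 ± 0.13 (adjusted p = 0.0274) in UB against WD+IM. Its UB against WD call was lost with median centring (-0.22, adjusted p = 0.424) and the spike-in term (-0.62, adjusted p = 0.198). The second was lost without UB replicate 1, UB replicate 3 or WD+IM replicate 2 (adjusted p = 0.0867 to 0.112) and with median centring (-0.07, adjusted p = 0.822), the spike-in term (-0.39, adjusted p = 0.247) and no mean-variance trend (-0.43, adjusted p = 0.0741).

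Plxna3 read 2179, 2419 and 2194 intensity units on the UB arrays, 2632, 2388 and 2118 on the WD+IM arrays and 3816, 3971 and 3937 on the WD arrays. WD lay above both other tissues, which overlapped. It fell, at -0.78 ± 0.15 (adjusted p = 0.00301) in UB against WD and at -0.71 ± 0.15 (adjusted p = 0.00946) in WD+IM against WD. The first call was lost with median centring (-0.32, adjusted p = 0.235) and the spike-in term (-0.54, adjusted p = 0.321), and the second with median centring (-0.61, adjusted p = 0.064), the beta-actin covariate (-0.76, adjusted p = 0.108), the mean of its tested probe sets (-0.45, adjusted p = 0.142) and the arrays of low spike-in ratio alone (-0.63, adjusted p = 0.101).

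Plxna2 read 353, 531 and 454 intensity units on the UB arrays, 2196, 1389 and 1403 on the WD+IM arrays and 1231, 1023 and 722 on the WD arrays. UB lay below WD and WD+IM above it, with no overlap. It fell, at -1.06 ± 0.29 (adjusted p = 0.016) in UB against WD and at -1.78 ± 0.29 (adjusted p = 0.000567) in UB against WD+IM. The UB against WD call was lost without UB replicate 1 or WD replicate 1 (adjusted p = 0.0624 to 0.0703) and with quantile normalization (-0.54, adjusted p = 0.198), median centring (-0.60, adjusted p = 0.108), the spike-in term (-0.75, adjusted p = 0.486) and the beta-actin covariate (-0.83, adjusted p = 0.162).

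Plxna4 was weak in all tissues and its UB against WD call was lost without UB replicate 1, UB replicate 2, WD replicate 1 or WD replicate 2 (adjusted p = 0.0717 to 0.115) and with quantile normalization (-1.08, adjusted p = 0.143), median centring (-1.30, adjusted p = 0.0581), the spike-in term (-0.28, adjusted p = 0.905) and the beta-actin covariate (-2.02, adjusted p = 0.0987). It was -1.76 ± 0.56 (adjusted p = 0.0341) in that comparison and -1.98 ± 0.56 (adjusted p = 0.0218) in UB against WD+IM, where the call was lost without UB replicate 1, UB replicate 2, WD+IM replicate 1 or WD+IM replicate 2 (adjusted p = 0.0735 to 0.094) and with the spike-in term (-0.99, adjusted p = 0.483). Plxnb1 fell in WD+IM against WD, at -0.52 ± 0.15 (adjusted p = 0.0468), a call lost without UB replicate 1, WD replicate 1, WD replicate 2, WD+IM replicate 1, WD+IM replicate 2 or WD+IM replicate 3 (adjusted p = 0.0783 to 0.129) and with median centring (-0.42, adjusted p = 0.282), the spike-in term (-0.53, adjusted p = 0.0896), the beta-actin covariate (-0.22, adjusted p = 0.619), the mean of its tested probe sets (-0.19, adjusted p = 0.457), array weights (-0.52, adjusted p = 0.0629), no filter (-0.52, adjusted p = 0.0567), the 2 tissues fitted alone (-0.52, adjusted p = 0.0745) and no mean-variance trend (-0.52, adjusted p = 0.0862). The arrays of low spike-in ratio alone ended this Plxnb1 call too (-0.53, adjusted p = 0.143). Plxna1 was not called in any comparison, and Plxnc1 was below the filter on low signal.

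Ephrins and Eph receptors were called lower in UB or not called under the authors' scaling; Efna4 was called higher in UB against WD under both other scalings. Efnb1, a transmembrane ephrin that can also signal into its own cell, read 1329, 1516 and 2193 intensity units on the UB arrays, 8212, 6766 and 6318 on the WD+IM arrays and 4242, 2695 and 4219 on the WD arrays. The tissues did not overlap, with WD+IM highest and UB lowest. Efnb1 fell, at -1.13 ± 0.23 (adjusted p = 0.0035) in UB against WD and at -2.07 ± 0.23 (adjusted p = 2.56e-05) in UB against WD+IM, and rose by 0.95 ± 0.23 (adjusted p = 0.0171) in WD+IM against WD. The UB against WD call was lost with the spike-in term (-0.89, adjusted p = 0.296) and the mean of its tested probe sets (-0.31, adjusted p = 0.631); its second tested probe set was 0.50 there. The last call was lost without WD replicate 2 or WD+IM replicate 1 (adjusted p = 0.0554 to 0.066) and with the beta-actin covariate (0.71, adjusted p = 0.294).

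Efnb3, of the same class, read 1457, 1148 and 1060.1 intensity units on the UB arrays, 4264, 4627 and 6134 on the WD+IM arrays and 2717, 3634 and 3229 on the WD arrays. UB lay lowest and WD+IM highest, again with no overlap. It fell, at -1.36 ± 0.20 (adjusted p = 0.000412) in UB against WD and at -1.99 ± 0.20 (adjusted p = 1.08e-05) in UB against WD+IM, and was 0.63 ± 0.20 (adjusted p = 0.0553) in WD+IM against WD, a value that passed without WD+IM replicate 1 (adjusted p = 0.049) and with the mean of its tested probe sets (0.63, adjusted p = 0.0316), the stricter filter (0.63, adjusted p = 0.0442) and the pseudocount at the 25th percentile (0.61, adjusted p = 0.0497). Efnb3 has only the main probe set, so the mean left its value as it was and changed the SE and the adjusted p alone. Both UB calls held with the spike-in term.

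Efna1, an ephrin anchored to the membrane by a lipid tail, read 1692, 1326 and 1891 intensity units on the UB arrays, 2163, 2434 and 2448 on the WD+IM arrays and 2906, 3278 and 3708 on the WD arrays. WD lay highest. It fell, at -0.998 ± 0.18 (adjusted p = 0.00194) in UB against WD, a call lost with median centring (-0.54, adjusted p = 0.0784) and the spike-in term (-1.09, adjusted p = 0.112). In UB against WD+IM it was -0.52 ± 0.18 (adjusted p = 0.0551), and passed with array weights (-0.52, adjusted p = 0.0287) and the stricter filter (-0.52, adjusted p = 0.0477). Efna5 read 5682, 6739.9 and 5994 intensity units on the UB arrays, 13487, 13533 and 10520.1 on the WD+IM arrays and 9148, 8019 and 11358 on the WD arrays. UB lay below both other tissues. It fell, at -0.62 ± 0.16 (adjusted p = 0.0138) in UB against WD and at -1.02 ± 0.16 (adjusted p = 0.000497) in UB against WD+IM. The first call was lost without UB replicate 1 (adjusted p = 0.0617) and with median centring (-0.16, adjusted p = 0.565), the spike-in term (-0.26, adjusted p = 0.668) and the mean of its tested probe sets (0.09, adjusted p = 0.843), where the mean turned its sign; its second tested probe set was 0.79 there. In WD+IM against WD it was 0.40 ± 0.16 (adjusted p = 0.126), and passed with the mean of its tested probe sets (1.24, adjusted p = 0.0109). Efna4 was not called, at 0.91 ± 0.33 (adjusted p = 0.0533) in UB against WD, and passed there without WD replicate 3 (adjusted p = 0.0154) and with quantile normalization (1.04, adjusted p = 0.0445), median centring (1.37, adjusted p = 0.00335), the mean of its tested probe sets (0.91, adjusted p = 0.0333), array weights (0.84, adjusted p = 0.0211) and the stricter filter (0.91, adjusted p = 0.0489). Efna4 too has only the main probe set, so that mean left its value as it was.

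Epha4, an Eph receptor that binds both ephrin classes, read 2429, 2673 and 1834 intensity units on the UB arrays, 6012, 4911 and 7045 on the WD+IM arrays and 3211, 3468 and 3009 on the WD arrays. WD+IM lay above both other tissues, and UB lay below WD. Epha4 rose by 0.87 ± 0.19 (adjusted p = 0.00914) in WD+IM against WD and fell, at -1.36 ± 0.19 (adjusted p = 0.000158) in UB against WD+IM. The WD+IM against WD call was lost with the arrays of low spike-in ratio alone (0.74, adjusted p = 0.0591). Its UB against WD value was -0.49 ± 0.19 (adjusted p = 0.0652). The other tested Epha4 probe sets were -0.68 (adjusted p = 0.0223), -0.33 (adjusted p = 0.357) and 0.0007 (adjusted p = 0.9996) in UB against WD. In WD+IM against WD they were 1.37 (adjusted p = 0.000757), 1.34 (adjusted p = 0.00556) and 2.02 (adjusted p = 0.0593).

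Epha3, a receptor of A-class ephrins, read 151, 122 and 153 intensity units on the UB arrays, 1388, 845 and 987 on the WD+IM arrays and 249.8, 403 and 505 on the WD arrays. WD+IM lay highest and UB lowest, without overlap. It fell, at -1.16 ± 0.37 (adjusted p = 0.0345) in UB against WD and at -2.55 ± 0.37 (adjusted p = 0.000257) in UB against WD+IM, and rose by 1.39 ± 0.37 (adjusted p = 0.0285) in WD+IM against WD. The first call was lost without UB replicate 1, UB replicate 2, UB replicate 3, WD replicate 2 or WD replicate 3 (adjusted p = 0.0685 to 0.0967) and with quantile normalization (-0.41, adjusted p = 0.403), median centring (-0.70, adjusted p = 0.165), the spike-in term (-1.03, adjusted p = 0.465), no filter (-1.16, adjusted p = 0.0564) and the 2 tissues fitted alone (-1.16, adjusted p = 0.0697). The last was lost without WD replicate 1, WD replicate 2, WD+IM replicate 1 or WD+IM replicate 3 (adjusted p = 0.0602 to 0.0968) and with the spike-in term (1.43, adjusted p = 0.0579), the beta-actin covariate (0.72, adjusted p = 0.486) and no filter (1.39, adjusted p = 0.0502). The arrays of low spike-in ratio alone ended it too (1.43, adjusted p = 0.0921).

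Epha6 read 115, 103 and 144 intensity units on the UB arrays, 626, 1056 and 824 on the WD+IM arrays and 362, 364 and 638 on the WD arrays. UB lay below both other tissues, which overlapped. It fell, at -1.55 ± 0.38 (adjusted p = 0.0103) in UB against WD and at -2.38 ± 0.38 (adjusted p = 0.00055) in UB against WD+IM. For Epha6 the UB against WD call was lost with quantile normalization (-0.84, adjusted p = 0.128) and the spike-in term (-1.56, adjusted p = 0.269). Epha7, by contrast, read 468, 543 and 728 intensity units on the UB arrays, 1627, 1062 and 573 on the WD+IM arrays and 633, 756 and 787 on the WD arrays. Its WD+IM values spread widely and overlapped the other tissues, and it was -0.76 ± 0.35 (adjusted p = 0.137) in UB against WD+IM. Leaving out WD+IM replicate 3 brought this value past the threshold, to -1.14 ± 0.31 (adjusted p = 0.02), as did array weights (-0.88, adjusted p = 0.0393), while the spike-in term gave -0.0066 (adjusted p = 0.995).

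Epha2 and Ephb6, an Eph receptor that lacks kinase activity, fell in UB against WD, at -0.78 ± 0.24 (adjusted p = 0.0264) and -0.72 ± 0.21 (adjusted p = 0.0247). Epha2's call was lost without UB replicate 1, WD replicate 2 or WD replicate 3 (adjusted p = 0.0589 to 0.122) and with quantile normalization (-0.65, adjusted p = 0.0821), median centring (-0.32, adjusted p = 0.353), the spike-in term (-0.73, adjusted p = 0.419) and the beta-actin covariate (-0.89, adjusted p = 0.0849). Ephb6's was lost without UB replicate 2, UB replicate 3, WD replicate 2 or WD replicate 3 (adjusted p = 0.0586 to 0.0789) and with quantile normalization (-0.45, adjusted p = 0.151), median centring (-0.26, adjusted p = 0.427) and the spike-in term (-0.59, adjusted p = 0.463). Ephb3 and Ephb4, receptors of B-class ephrins, were not called in any comparison. Epha5, Epha8, Epha10 and Ephb1 were below the filter.

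**Figure D4:**
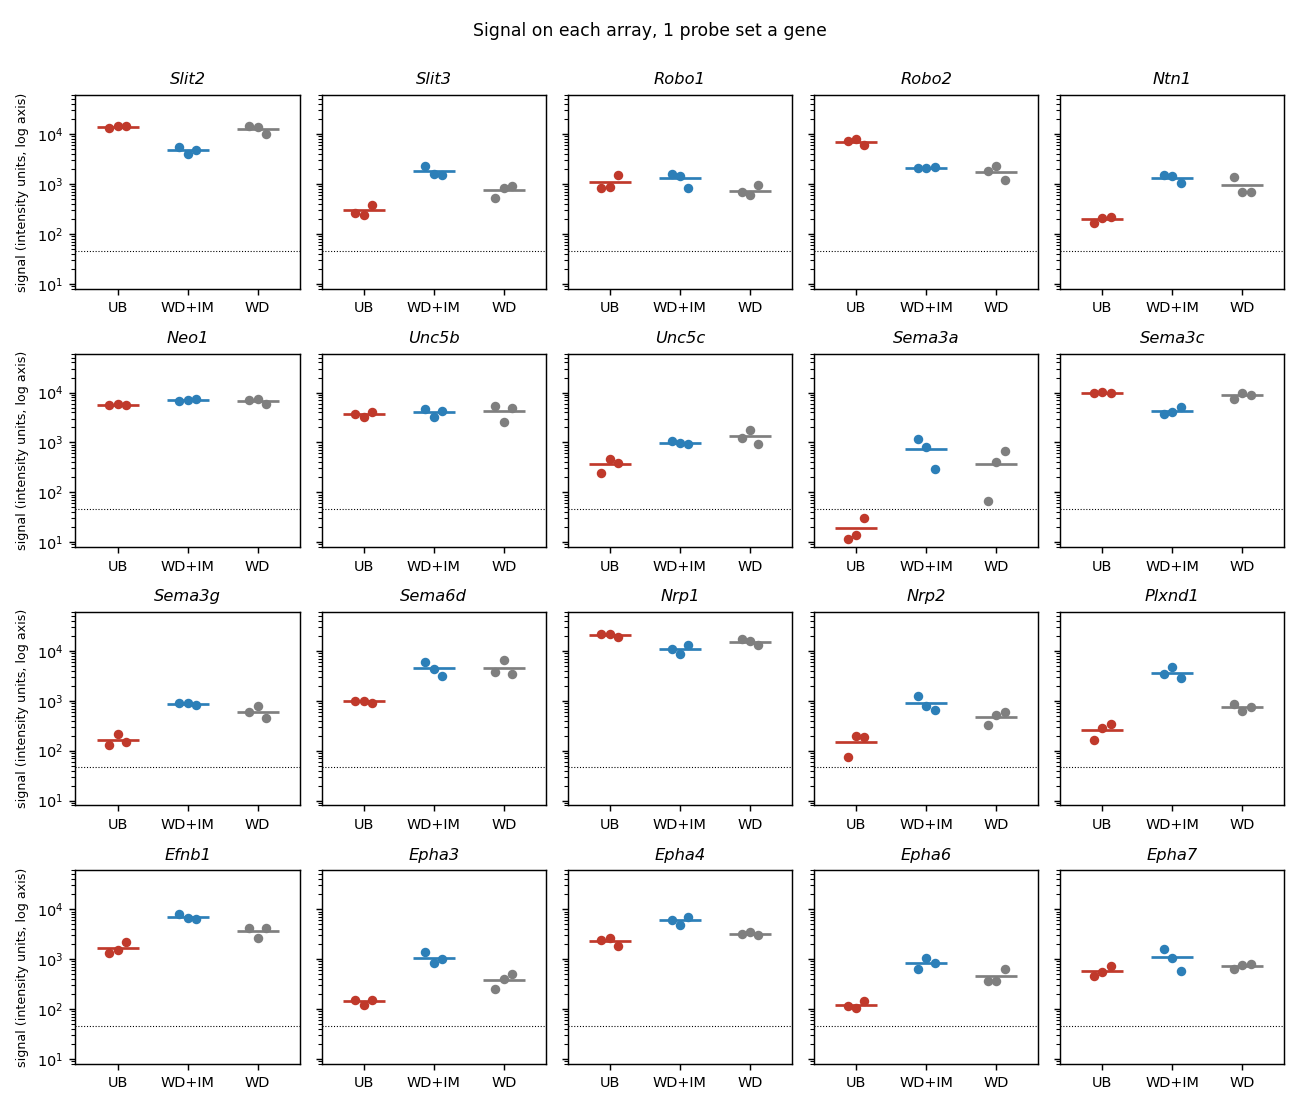
Signal on each array (y axis, intensity units, log scale) of the 20 named genes, with UB left, WD+IM in the middle and WD right; the dotted line marks the pseudocount of 46 units. Sema3a sits below the line on all 3 UB arrays, and Plxnd1 separates all 3 tissues.

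Several members were read by more than 1 probe set. Of 17 genes with at least 2 tested probe sets, 3 had all of them called one way in UB against WD, 7 had none called and 7 had some called and some not. In WD+IM against WD these counts were 0, 10 and 7, and in UB against WD+IM 3, 7 and 7. No gene had probe sets called in opposite directions. The divided genes were, in UB against WD, Efna1, Efna5, Efnb1, Epha3, Epha4, Plxna3 and Sema6a. In WD+IM against WD they were Efna5, Efnb1, Epha3, Epha4, Plxna3, Plxnb1 and Slit2, and in UB against WD+IM they were Efna5, Efnb1, Nrp1, Plxna2, Robo2, Sema6a and Slit2.

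Genes that carry signals from these receptors to the cytoskeleton were examined as a list of 62, of which 53 were tested. Of these, 7 rose and 4 fell in UB against WD. Crmp1 and Dpysl2, collapsin response mediators downstream of semaphorins, rose by 1.33 ± 0.21 and 0.69 ± 0.14, and Pitpna and Gipc1 by 0.78 ± 0.13 and 0.88 ± 0.20. In WD+IM against WD 2 rose, Crmp1 by 1.12 ± 0.21 and Rgs3, a regulator of G protein signalling, by 0.77 ± 0.14. There 5 fell, among them Dpysl5, of the same mediator family, at -1.71 ± 0.17 and Vav3, a guanine nucleotide exchange factor, at -1.14 ± 0.20. UB against WD+IM gave 11 higher and 5 lower. The 4 with the smallest p there rose: Dpysl5 by 2.01 ± 0.17, Pitpna by 0.90 ± 0.13, Vav3 by 1.34 ± 0.20 and Grb7, an adaptor protein, by 1.93 ± 0.29. The calls came to 20.8%, 13.2% and 30.2% of the 53 genes in the 3 comparisons, against 33.0%, 14.7% and 30.3% of all genes, so none lay above its background. The median over the list was 0.06 in UB against WD, 0.07 in WD+IM against WD and 0.01 in UB against WD+IM.

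A second list held 24 other ligands, receptors and co-receptors of these pathways, of which 16 were tested. Of these, 4 rose and 6 fell in UB against WD, and the 4 with the smallest p were Flrt3 and Flrt2, ligands of Unc5 receptors, at -2.75 ± 0.14 and -1.81 ± 0.23, and Lrig1 and Gpc1, at 1.46 ± 0.21 and 0.60 ± 0.16. WD+IM against WD gave 4 higher and 3 lower. Kdr, a receptor of vascular endothelial growth factors and an endothelial marker, rose by 3.19 ± 0.28 there, and L1cam, a cell adhesion molecule of nerve fibres, and Rgmb, a ligand of Neo1, were -2.37 ± 0.24 and -1.42 ± 0.19. Flrt2 rose by 1.37 ± 0.23 in the same comparison. UB against WD+IM gave 5 higher and 6 lower. Rgmb rose by 2.11 ± 0.19 there, and Flrt3, Flrt2 and Kdr were -3.31 ± 0.14, -3.18 ± 0.23 and -3.77 ± 0.28. The calls came to 62.5%, 43.8% and 68.8% of the 16 genes, against 33.0%, 14.7% and 30.3% of all genes. The median over the second list was -0.25 in UB against WD, 0.34 in WD+IM against WD and -0.31 in UB against WD+IM.

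Which members were called changed with the scaling and with the spike-in term. All 3 higher calls in UB against WD and 6 of 22 lower calls, Efnb1, Efnb3, Ntn1, Sema3b, Sema6d and Unc5c, held under all 3 scalings. With a term for the spike-in sets, which WD+IM replicate 3 alone separates from the tissue, the 3 higher calls and the lower calls of Efnb3 and Sema3b remained. The term also widened the SE. In UB against WD Efna1 went from -0.998 ± 0.18 to -1.09 ± 0.34, and Plxna4 from -1.76 ± 0.56 to -0.28 ± 0.90. Calls were thus lost both with a difference kept in size and with a smaller one. Over all 20334 probe sets, calls in UB against WD went from 6073 to 798 with the term. In UB against WD+IM that term left 5 of the 7 higher calls, without Nrp1 and Sema4a, and 12 of the 17 lower ones, without Nrp2, Plxna4, Plxnb2, Sema3a and Unc5c. In WD+IM against WD it left 4 of the 5 higher calls, without Epha3, and 4 of the 5 lower ones, without Plxnb1. All 5 higher calls in WD+IM against WD, Efnb1, Epha3, Epha4, Plxnd1 and Slit3, and the lower calls of Sema3b, Sema3c and Slit2 held under all 3 scalings. All 7 higher calls in UB against WD+IM and 16 of 17 lower calls held, all but Plxnb2.

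**Figure D5:**
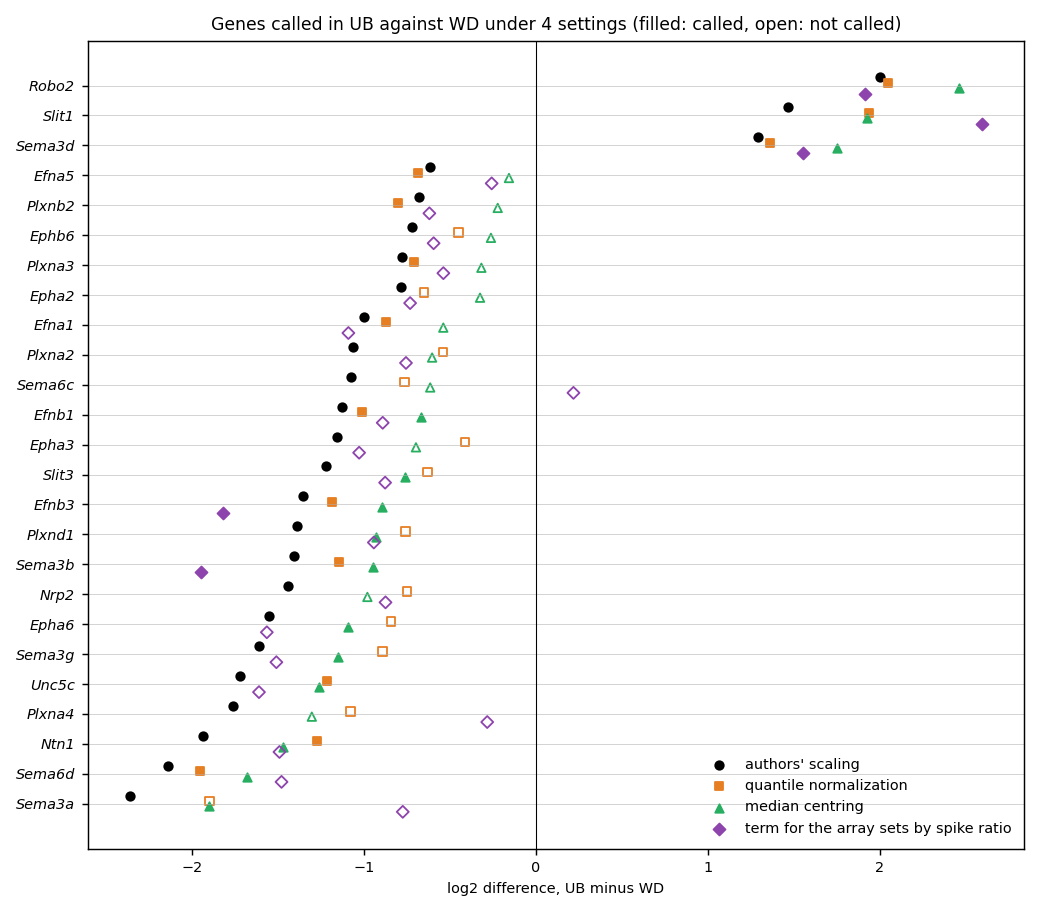
Log2 difference in UB against WD (x axis) of the 25 called genes under the authors' scaling, quantile normalization, median centring and a term for the spike-in sets; filled points are called and open points are not. Robo2, Sema3d and Slit1 stay filled to the right of 0 under all 4 settings, and Efnb3 and Sema3b stay filled to the left.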

How the data were processed

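The authors hybridised biotin-labelled RNA of 3 pools per tissue to 9 single-colour Affymetrix arrays. The deposited values are linear intensities made with GCOS, per the submitters' processing notes, whose version and settings the sources used here do not state. All 9 arrays share a 2% trimmed mean of 2501 units, read from the values. No detection calls were used, so weak signal cannot be told from background.

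Of 31099 probe sets, 57 were controls, 20826 had 1 gene symbol, 436 several and 9780 none. All 57 members matched the GRCr8 table by Entrez ID. The filter kept the 20334 probe sets above the 40th percentile of the array on 3 or more arrays. The pseudocount of 46 is the 10th percentile of all values, and understates differences of weak genes. limma 3.58.1 in R 4.3.3 fitted group means to all 9 arrays with a mean-variance trend (6 residual and 6.09 prior degrees of freedom), with Benjamini-Hochberg adjustment within each comparison. The code of the fit was run on simulated arrays with independent noise and few changed probe sets. Those arrays held no spike-in, RNA quality or scaling differences, so the run cannot speak to their part in the calls. The alternatives, changed one at a time, were quantile normalization, median centring, another pseudocount, a stricter filter and no filter, limma's array weights, no mean-variance trend, only the 2 tissues compared, the mean of a gene's tested probe sets, terms for the spike-in sets or the beta-actin ratio, the replicate block and leaving out each array. Each gene is its probe set of highest mean log2 value. All arrays were given in the text for 10 genes called with a log2 difference of at least 2 in size and no overlap, and for the fixed members Slit2, Slit3, Robo1, Robo2, Sema3a, Sema3c, Nrp1, Plxnd1, Epha4, Epha7, Ntn1, Unc5b, Unc5c and Neo1, 20 genes in all. Values of Slit1, Sema3b, Sema3d, Efna1, Efna5, Efnb3, Plxna2, Plxna3 and Plxnb2 were added after they were seen. Other genes were named by their calls, and from the 2 pathway lists up to 4 by p in each comparison. Members and lists were chosen with earlier results of these data known. P-values measure the spread between 3 pools a tissue.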

Additional observations from a re-analysis of the deposited data

How the results depend on the processing

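The 20 named genes gave 60 results, of which 35 were called, and those alone could lose a call. Some alternatives, such as leaving out an array of the third tissue, cannot move the difference itself. Of 1399 alternative values for these results, 1313 kept their side of the threshold, 66 lost a call and 20 gained one. Of these values, 29 in 14 of the 60 results changed sign, of which 0 were called under the reported setting and 0 under the alternative. Among the other members, 2 called values changed sign in UB against WD: Sema6c was 0.22 with the spike-in term and Efna5 was 0.09 with the mean of its tested probe sets. The 25 calls of UB against WD became 16 with quantile normalization and 5 with the spike-in term. Over all 20334 probe sets tested, 6073 calls became 4949 and 798 in the same order. Leaving out 1 array at a time gave 16 to 26 member calls. The 10 calls of WD+IM against WD became 6 with a minimum difference of 2-fold, 6 within the arrays of low spike-in ratio and 4 with the beta-actin covariate. Over all probe sets, 2577 calls became 1464, 1444 and 826 in that order. Leaving out 1 array gave 7 to 12 member calls. The 24 calls of UB against WD+IM ranged from 21 to 25 without 1 array, and the other alternatives stayed within 1.5 times. The cause of these shifts was not tested. Counting a gene as called through any of its tested probe sets, an alternative chosen after seeing the data, gave 27, 11 and 25 calls. Where an array was left out, the remaining 2 of its tissue shared the spread of all tissues.

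Replicate numbers were shared between tissues in the labels, but same-numbered arrays did not deviate together: of 9 such pairs the correlations ran from -0.35 to 0.28 and 1 was over 0.1, so the numbers were not taken as pairs. With the replicate number as a block the counts were 22, 8 and 24 in the 3 comparisons. Over all probe sets 5338, 2194 and 4608 were called with the block, against 6073, 2577 and 5177 without. That block ended the UB against WD calls of Epha3, Plxna4, Sema3a and Sema6c (adjusted p = 0.05004 to 0.0638). It also ended the WD+IM against WD calls of Epha3 and Plxnb1 (adjusted p = 0.0545 to 0.0589). Efna4 passed with it in UB against WD (adjusted p = 0.0474). Limits lie in the 3 arrays per tissue and in the weak signals near the pseudocount.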

Other observations

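Members below the filter on low signal have values and no test. Ephb1, a receptor of B-class ephrins, read 254, 333 and 166 intensity units on the UB arrays, 169, 41.9 and 32.6 on the WD+IM arrays and 19.2, 37.2 and 40.2 on the WD arrays. All UB arrays lay above all WD arrays, and WD+IM overlapped WD. Sema3e, a class 3 semaphorin that signals through Plxnd1, read 149, 104 and 70.2 intensity units on the UB arrays, 389, 602 and 427 on the WD+IM arrays and 386, 281 and 229 on the WD arrays. All UB arrays lay below all others, and all WD+IM arrays lay above all WD arrays. Dcc, the classical netrin receptor, read 91.4, 126 and 183 intensity units on the UB arrays, 152, 255 and 252 on the WD+IM arrays and 198, 159 and 95.4 on the WD arrays, and the groups overlapped. The other members below the filter were Epha5, Epha8, Epha10, Ntn5, Plxnc1, Robo3, Sema4d and Unc5a. Other member pairs that lie near each other in the GRCr8 table are Efna1 and Efna4 on chromosome 2, with 1 protein-coding gene between them, Sema3c and Sema3e on chromosome 4, with 4, and Sema3b and Sema3f on chromosome 8, with 3.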
